A study of Mus musculus with 16 samples.

Results

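The genes described here are 10 mouse genes for the sensing of RNA and DNA in the cytosol and in endosomes, out of 49585 genes in each of 2 count tables. The members were chosen by function and gene name, through the Ensembl identifiers of *Ifih1*, *Ddx58*, *Dhx58*, *Tlr3*, *Mavs*, *Tmem173*, *Mb21d1*, *Zbp1*, *Eif2ak2* and *Irf3*, with no threshold on any value. They were put together with their levels in all 16 libraries already known, so the adjusted p of a member describes that gene in the test over all genes and is no independent evidence for the group. All 10 had a row in both tables and all 10 passed the filter on low counts in every comparison.

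RNA-seq was performed in C2C12 cells, an established line of mouse myoblasts that fuse into myotubes when serum is lowered. In the first table, wild-type cells (WT) and cells with both catalytic AMPK subunits knocked out (AMPK-KO, AMPK-/-) were sequenced before differentiation (d0) and on day 8 of differentiation (d8), with 2 libraries in each of the 4 groups. In the second table, all 8 libraries came from AMPK-/- cells at d0 in which a FLAG-BirA tag and an EGFP coding sequence had been placed at the N-terminus of the endogenous TET2 locus, with TET2 otherwise unchanged (TET2-WT) or with serine 97 of TET2 changed to glutamic acid to mimic its phosphorylation by AMPK (TET2-S97E), with 2 clones per genotype and 2 libraries per clone. The comparisons ask how gene expression depends on AMPK during muscle differentiation and what the change at serine 97 does without AMPK. The study worked with more than 1 AMPK-KO line, and its figure of RNA-seq and MeDIP-seq signal at *Pax7* shows 2 independent lines. The labels do not say which line gave which library of the first table or whether same-group libraries came from separate cultures. The p-values therefore measure the spread between these libraries, which may be technical. Libraries of the first table held 17883417 to 24663079 counts, and 19801909 to 37790358 counts were in those of the TET2 series of clones. The tables were normalized separately, and no test was made across them. In bulk RNA, fewer cells with a transcript and less transcript per cell cannot be told apart. Where groups are said below not to overlap, the share of all genes that separate in the same way was not counted. Groups of 2 libraries can separate by chance alone, so such a statement only describes the values.

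RNA sensing in the cytosol rests on the RIG-I-like helicases. RIG-I (*Ddx58*) and MDA5 (*Ifih1*) bind viral RNA and signal through the mitochondrial adaptor MAVS, and LGP2 (*Dhx58*) lacks the signalling domain and modulates both. TLR3 (*Tlr3*) binds RNA duplexes in endosomes. Cytosolic DNA is bound by cGAS (*Mb21d1*), which makes a cyclic dinucleotide that activates STING (*Tmem173*), and ZBP1 (*Zbp1*) binds Z-form nucleic acid and can start necroptosis through RIPK3. PKR (*Eif2ak2*) halts translation when it binds RNA duplexes, and IRF3 (*Irf3*) is the transcription factor that several of these routes activate to induce type I interferon. Several sensor genes are themselves induced by interferon, through factors that include STAT2 and IRF9.

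Promoter windows from RefSeq (GRCm38.p6, 250 bases before to 50 bases after each gene start) were at hand for 7 of the 10 members, with *Mb21d1* listed under its newer symbol *Cgas*. They were searched on both strands for the core of the interferon-stimulated response element (GAAA, any 2 bases, GAAA), on which STAT2 and IRF9 act, and for the gamma-activated site (TTC, any 3 bases, GAA), an element of interferon gamma responses. The response element core was found in the windows of *Ifih1*, *Ddx58* and *Eif2ak2*, 3 of 7, and in 3.44% of all 32851 windows. The gamma-activated site was found in that of *Eif2ak2* alone, 1 of 7, and in 8.30% of all windows. These 3 genes are shown as the members with a match to the response element core. The window of *Tlr3*, which like them was high in the library described next, holds none. That window lies at chr8:45410331-45410630, and the outermost start of *Tlr3* in GENCODE M21, at chr8:45411080 on the minus strand, is outside it. A match near that start was therefore not looked for. All 3 response element matches lie just after the gene start, at bases 33 to 42 in *Ifih1*, 3 to 12 in *Ddx58* (on the opposite strand) and 19 to 28 in *Eif2ak2*. Each line gives 30 bases on the strand of the gene, with the match in capitals, at chr2:62646206-62646235, chr4:40239804-40239833 and chr17:78882535-78882564, all on the minus strand.
Ifih1: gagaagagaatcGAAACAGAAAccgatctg
Ddx58: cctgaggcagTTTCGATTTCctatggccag
Eif2ak2: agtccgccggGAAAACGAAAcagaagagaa
A match describes the letters in the window and does not show that a factor binds there. The 250 bases before the start of *Ifih1*, the member with the clearest difference between genotypes, lie at chr2:62646256-62646505 on the minus strand (50% G or C).
Ifih1 upstream: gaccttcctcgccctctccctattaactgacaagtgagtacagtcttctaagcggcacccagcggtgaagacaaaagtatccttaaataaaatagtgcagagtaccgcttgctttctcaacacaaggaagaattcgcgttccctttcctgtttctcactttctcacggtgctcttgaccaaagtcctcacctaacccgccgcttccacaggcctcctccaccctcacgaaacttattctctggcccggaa

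The edited genes were examined first. *Prkaa1*, which encodes the alpha 1 subunit of AMPK, was at 158.5 and 158.6 CPM (read counts scaled to library size) in WT d0 and at 79.66 and 78.03 in AMPK-KO d0, a log2 fold change of -1.01 (SE 0.13, adjusted p = 0.0116 by edgeR's quasi-likelihood test with Benjamini-Hochberg adjustment over all genes tested, as for every adjusted p below unless another tool is named). At d8 it was -0.60 (SE 0.13, adjusted p = 0.0419), and -0.59 (adjusted p = 0.189) without AMPK-KO d8 replicate 1. *Prkaa2*, the alpha 2 subunit, was at -2.43 (SE 0.51, adjusted p = 0.0527) at d0, with 35 and 33 counts in WT against 4 and 9, and at -2.96 (SE 0.47, adjusted p = 0.0190) at d8, or -3.28 (adjusted p = 0.0685) without the same library. Over 8 fits without 1 library, the call of *Prkaa1* was lost in 2 at d0 (highest adjusted p = 0.0997) and in 7 at d8 (0.234), and that of *Prkaa2* at d8 in 4 (0.131). Transcripts of both genes thus remained detectable in AMPK-KO. *Tet2* had 758, 854, 1275 and 1584 counts in TET2-WT and 256, 675, 156 and 677 in TET2-S97E (log2 fold change -1.40, SE 0.39, adjusted p = 0.0621), and counts per gene do not show the base change itself.

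The muscle marker desmin (*Des*) was detected in all libraries, at 693 to 3298 CPM. It does not stand for all 8 muscle markers, of which 7 were lower by value in AMPK-KO than in WT at d0 (median log2 fold change -3.03). Markers of other cell types were examined as well. Of the 8 immune cell markers, *Cd14* was the most abundant, at 7.74 to 38.9 CPM. *Adgre1* was at 0 in every library, and *Ptprc*, *Itgam* and *Cd3e*, which mark leukocytes, macrophages and T cells, were at 0 to 2 counts. The macrophage markers *Cd68* and *Csf1r* were detected, at 18 to 134 and 3 to 38 counts over the 16 libraries. The summed level of the immune list was 9.20 to 26.8 CPM among WT and AMPK-KO and 23.7 to 42.5 CPM in the TET2 table. The 5 endothelial markers summed to 1.21 to 13.0 CPM in all 16 libraries, with *Tek* the most abundant in 15 of them and *Tie1* at 0 in 14.

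AMPK-KO d8 replicate 1 stood apart from all other libraries. The summed level of 25 interferon-stimulated effectors, the antiviral genes that interferon induces, was 2269 CPM there, against 250 in AMPK-KO d8 replicate 2, 239 and 242 in WT d8, and 151 to 211 in the 4 d0 libraries. Its level was the highest of the 8 libraries for 6 of the 10 sensor genes, for 21 of 22 tested effectors and for 11.5% of all genes tested. Over 2 times every other library were the same 6 sensors and 18 of the 22 effectors, against 0.921% of all genes tested. *Ifnb1*, which encodes interferon beta, had 9 counts in this library and 0 in the other 15, and *Ifna4* had 4 counts there and 0 elsewhere. The same library also had less muscle RNA: the 8 muscle markers summed to 2924 CPM, against 11390 in AMPK-KO d8 replicate 2 and 7491 and 9142 in WT d8. Mitochondrial genes took 0.977% of its counts, within the range of the table. The immune list summed to 18.1 CPM in it and 26.8 in its partner, with *Ptprc*, *Adgre1*, *Itgam* and *Cd3e* at 0. Whether less differentiation had a part in the high sensor levels of this library was not tested. The results of the sensors and pathway genes at d8 in AMPK-KO are given with and without it.

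**Figure D1:**
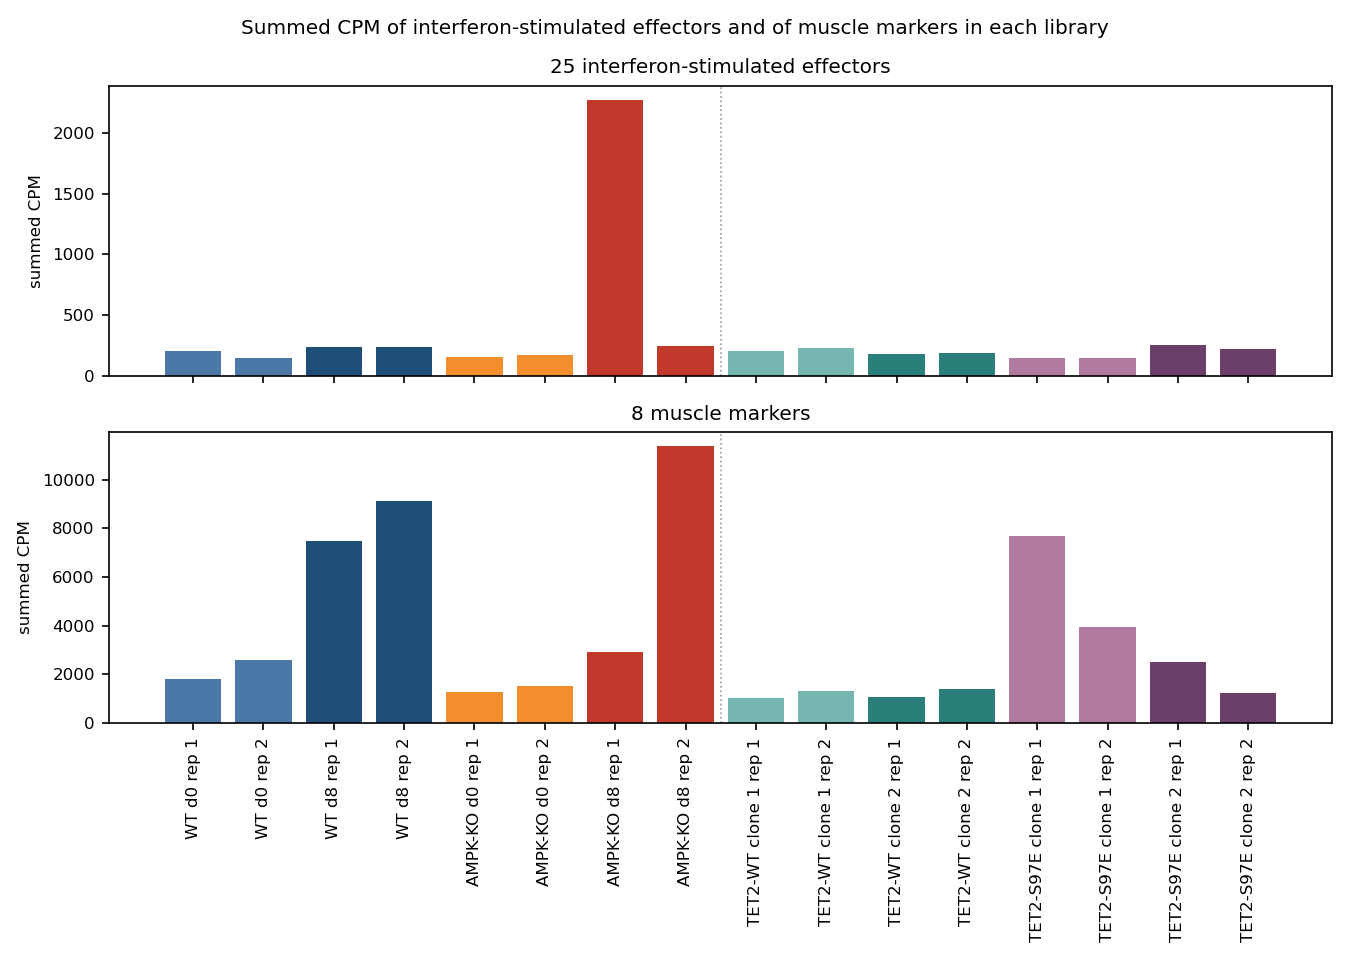
Summed CPM of 25 interferon-stimulated effectors (top) and 8 muscle markers (bottom), a bar per library, coloured by group, with a dotted line between the separately normalized tables. AMPK-KO d8 replicate 1 reaches 2269 CPM for the effectors, where all 15 others lie between 151 and 258.

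Levels per transcript length (TPM, read counts scaled by exon length and library size) were used to order the genes. In the first table the medians over 8 libraries were highest for *Mavs* (35.0 TPM), *Irf3* (32.7 TPM) and *Eif2ak2* (30.5 TPM), whose ranges overlapped. *Tmem173* followed at 14.7 TPM, and its highest library (22.7 TPM) was below the lowest of *Eif2ak2* (23.8 TPM). Then came *Ddx58* (6.91 TPM), *Mb21d1* (6.78 TPM), *Tlr3* (3.01 TPM), *Ifih1* (1.46 TPM), *Zbp1* (1.06 TPM) and *Dhx58* (0.766 TPM), each overlapping the next. In the TET2 table the order was similar, with *Irf3* (42.5 TPM) and *Mavs* (31.8 TPM) changing places, *Dhx58* (0.779 TPM) above *Zbp1* (0.528 TPM), and *Ifih1* in last place at a median of 0.290 TPM over both genotypes. In TET2-WT alone *Ifih1* was at a mean of 1.27 TPM, above those of *Tlr3* (1.09 TPM), *Dhx58* (0.814 TPM) and *Zbp1* (0.562 TPM), with overlapping ranges. In that table *Ddx58* was separated from *Tmem173* above it and *Tlr3* from *Mb21d1* above it, whereas *Tmem173* (up to 21.4 TPM) overlapped *Eif2ak2* (from 19.6 TPM).

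The span of levels over the libraries also differed between the members. The highest library was 1.496 times the lowest for *Mavs* and 1.64 times for *Irf3* in the first table, and 1.35 and 1.46 times in the TET2 table, on the TPM scale. *Zbp1* and *Dhx58* spanned 189 and 78.7 times in the first table, and 12.3 and 3.52 times in the second. Single libraries carried much of this: without AMPK-KO d8 replicate 1, *Zbp1* and *Dhx58* spanned 30.4 and 4.30 times in the first table, and without TET2-S97E clone 2 replicate 1, *Zbp1* spanned 4.30 times in the second.

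**Figure D2:**
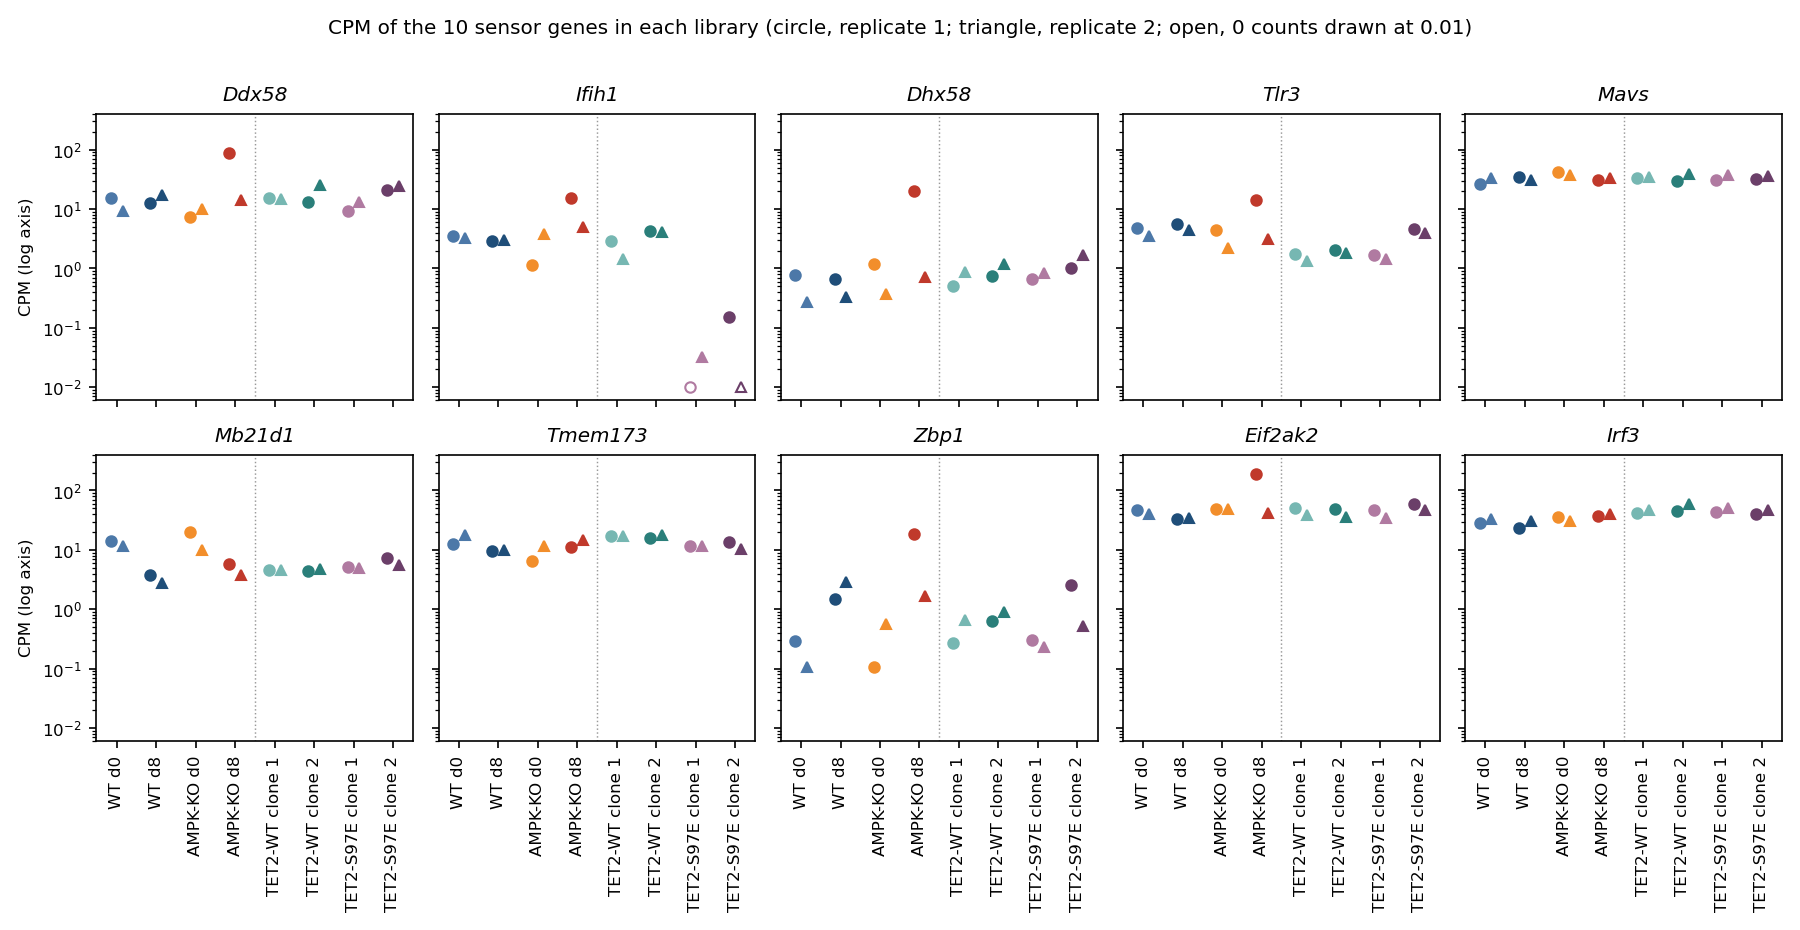
CPM on a log axis for each of the 10 genes, in 8 groups of 2 libraries; circles are replicate 1, triangles replicate 2, and open symbols libraries with 0 counts, drawn at 0.01. The circle of AMPK-KO d8 lies above all others for *Ddx58*, *Ifih1*, *Dhx58*, *Tlr3*, *Zbp1* and *Eif2ak2*, and *Ifih1* drops to 3 counts or fewer in all 4 TET2-S97E libraries.

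Before differentiation, no sensor gene passed the test between AMPK-KO and WT. The log2 fold changes at d0 ran from -0.75 to 0.73 with a median of 0.14, against a median of 0.00 over all 14329 genes tested, of which 3.52% were called (adjusted p under 0.05 in either direction). None of the 10 had an unadjusted p under 0.05, against 2995 of all genes tested. *Tmem173* was at 12.3 and 17.9 CPM in WT d0 and at 6.54 and 11.4 in AMPK-KO d0. The groups did not overlap, and the log2 fold change was -0.75 (SE 0.34, adjusted p = 0.266). *Mavs* was at 25.9 and 33.6 CPM in WT d0 and at 42.3 and 36.8 in AMPK-KO d0 (log2 fold change 0.41, SE 0.19, adjusted p = 0.275), again without overlap. The 3 helicases, *Tlr3*, *Mb21d1*, *Zbp1* and *Irf3* overlapped between the genotypes at d0, and *Eif2ak2* was slightly higher in AMPK-KO, at 49.5 and 49.2 CPM against 47.6 and 40.0 (0.17, SE 0.57, adjusted p = 0.909). Muscle markers also differed at d0: 2 of 8 were called lower in AMPK-KO, *Myod1* (-3.29, SE 0.45, adjusted p = 0.0147) and *Myog* (-5.36, SE 0.68, adjusted p = 0.0116), both regulators of the muscle lineage, and each call was lost in 2 of 8 fits without 1 library (highest adjusted p of 0.117 and 0.106). DESeq2's Wald test also called no member at d0, where it called 8.7% of 14935 genes.

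At d8 the sensor genes were higher in AMPK-KO by value, but edgeR called no member among the 14329 genes tested, of which it called 5.35%. The median log2 fold change of the members was 1.28, against 0.04 over all genes tested, and 9 of 10 were above 0, 5 of them with an unadjusted p under 0.05. Of all 14329 genes tested, 7597 were above 0 and 3266 had an unadjusted p under 0.05 in either direction. DESeq2's Wald test called *Dhx58* (adjusted p = 0.00254) and *Eif2ak2* (adjusted p = 0.0142) higher, where it called 9.7% of 15858 genes. Without the filter on low counts edgeR called *Ddx58*, *Dhx58*, *Eif2ak2*, *Ifih1* and *Zbp1* higher, where it called 9.98% of 25084 genes. The values turned on AMPK-KO d8 replicate 1.

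Among the RNA helicases, *Ddx58* was at 12.7 and 17.2 CPM in WT d8, at 86.7 in AMPK-KO d8 replicate 1 and at 14.3 in replicate 2. The second AMPK-KO library lay between the WT libraries. The log2 fold change was 1.76 (SE 0.74, adjusted p = 0.215), -0.04 without replicate 1 and 2.51 without replicate 2. *Ifih1* was at 2.92 and 3.05 CPM in WT d8 and at 15.1 and 5.05 in AMPK-KO d8, so that both AMPK-KO libraries were above both of WT. Its log2 fold change was 1.75 (SE 0.67, adjusted p = 0.178) and 0.78 (adjusted p = 0.611) without replicate 1. *Dhx58* was at 0.661 and 0.328 CPM in WT d8 and at 20.5 and 0.729 in AMPK-KO d8 (log2 fold change 4.42, SE 1.47, adjusted p = 0.135), and without replicate 1 the change was 0.58. Replicate 1 was 28.2 times replicate 2 for *Dhx58*, 6.05 times for *Ddx58* and 2.99 times for *Ifih1*.

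The endosomal sensor and the RNA and Z-form sensors of the cytosol had the same library at the top. *Tlr3* was at 5.67 and 4.46 CPM in WT d8 and at 14.5 and 3.16 in AMPK-KO d8 (log2 fold change 0.80, SE 0.68, adjusted p = 0.526), and turned to -0.66 without replicate 1. *Zbp1* was at 1.49 and 2.91 CPM in WT d8 and at 18.4 and 1.70 in AMPK-KO d8 (2.19, SE 1.08, adjusted p = 0.278), and turned to -0.35 without replicate 1. For both genes, AMPK-KO replicate 2 was below the higher WT library. *Eif2ak2* was at 32.9 and 35.0 CPM in WT d8 and at 187 and 41.4 in AMPK-KO d8 (1.75, SE 0.59, adjusted p = 0.137), with both AMPK-KO libraries above WT, and was at 0.30 without replicate 1. Leaving out replicate 2 instead, so that replicate 1 alone stood for AMPK-KO and was taken to vary as the other groups do, called 3 members higher: *Ddx58* (adjusted p = 0.0202), *Dhx58* (0.0225) and *Eif2ak2* (0.00448), in a fit that called 3.66% of 15064 genes. Without replicate 1 no member was called and the median of the members was 0.27.

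The remaining members did not share this pattern. *Irf3* was at 23.1 and 30.5 CPM in WT d8 and at 37.6 and 39.7 in AMPK-KO d8, with close AMPK-KO values and no overlap (log2 fold change 0.53, SE 0.20, adjusted p = 0.180). *Tmem173* was at 9.70 and 9.99 CPM in WT d8 and at 11.1 and 14.8 in AMPK-KO d8 (0.39, SE 0.34, adjusted p = 0.534). *Mb21d1* was at 3.801 and 2.815 CPM in WT d8 and at 5.83 and 3.84 in AMPK-KO d8 (0.55, SE 0.41, adjusted p = 0.472). Without replicate 1 the log2 fold changes of *Irf3*, *Tmem173* and *Mb21d1* were 0.58, 0.60 and 0.24 (adjusted p of 0.331, 0.514 and 0.845). None of these 3 differences passed the test in either fit, and *Mavs*, at 31.1 to 34.5 CPM in all 4 libraries, overlapped between the genotypes.

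**Figure D3:**
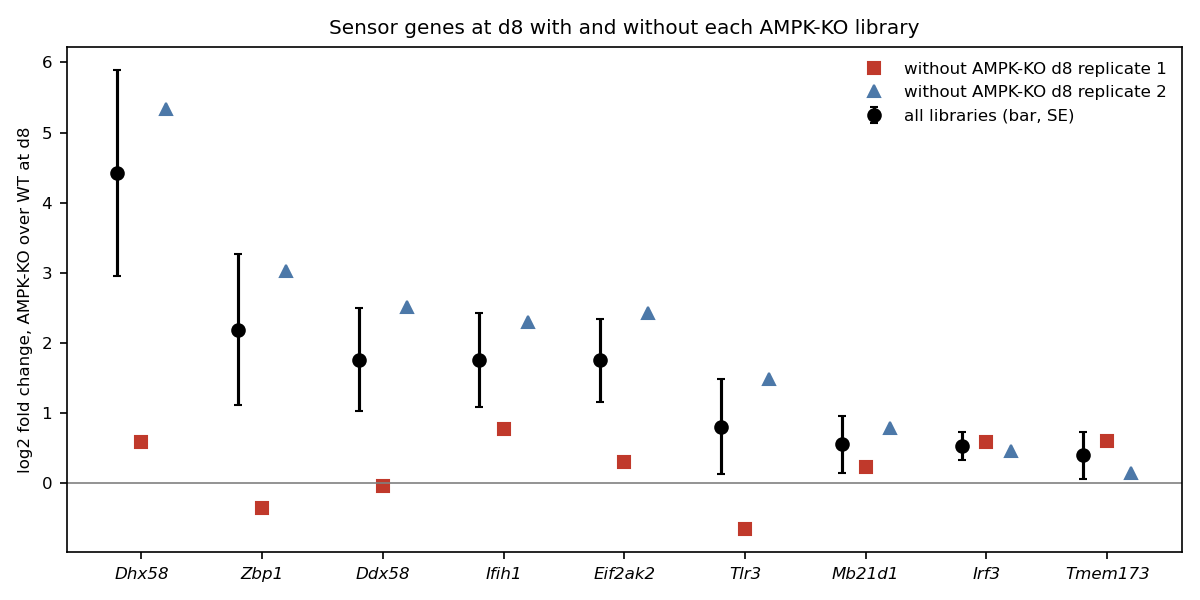
Log2 fold change of AMPK-KO over WT at d8 for 9 sensor genes, with all libraries (black, bar SE), without AMPK-KO d8 replicate 1 (red) and without replicate 2 (blue). Without replicate 1, *Ddx58* falls to -0.04, *Tlr3* to -0.66 and *Zbp1* to -0.35, whereas *Irf3*, *Tmem173* and *Mb21d1* stay above 0, at 0.58, 0.60 and 0.24.

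The downstream genes named in this paragraph had the same library at the top. AMPK-KO d8 replicate 1 was the highest of the 8 libraries for 7 of 11 tested transcription factors and 21 of 22 tested effectors. It was the highest for 1 of 19 adaptors, ligases and kinases, and for 11.5% of all genes tested. *Irf7*, the interferon-inducible relative of IRF3, was at 1.05 and 0.985 CPM in WT d8 and at 80.8 and 3.06 in AMPK-KO d8 (log2 fold change 5.36, SE 1.35, adjusted p = 0.0707). *Stat2* and *Irf9* were at 1.62 (adjusted p = 0.179) and 1.90 (adjusted p = 0.182). Without replicate 1 the changes of *Irf7*, *Stat2* and *Irf9* were 1.61, 0.17 and 0.15, none of them called. The antiviral effector *Ifit1* was at 0.496 and 1.08 CPM in WT d8 and at 333 and 8.31 in AMPK-KO d8, and was called higher (7.72, SE 1.70, adjusted p = 0.0477), but not with the replicate number as a block (6.82, adjusted p = 0.0691) or without replicate 1 (3.40, adjusted p = 0.0662). *Isg15*, a ubiquitin-like modifier, was at 6.09 (adjusted p = 0.0715) and at 1.88 without replicate 1 (adjusted p = 0.240). *Ifi35* was called higher as well (1.64, SE 0.35, adjusted p = 0.0439), and without replicate 1 it was at 0.97 and not called. Of 13 alternatives to the main fit, the call was lost in 9 for *Ifit1* and in 8 for *Ifi35*. All 22 tested effectors of 25 listed were above 0, 2 of them called, with a median log2 fold change of 3.26; without replicate 1 the median was 0.48, with 14 of 22 above 0, none called higher and 1 called lower, *Xaf1* (-2.60, adjusted p = 0.0289), which was picked out after its values were seen.

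Some pathway genes were called between AMPK-KO and WT, *Aim2* and *Ripk3* on both days and *Irf1*, *Ifngr1* and *Tnfaip3* at d8. *Aim2*, an inflammasome sensor of cytosolic DNA, was at 2.70 and 4.55 CPM in WT d0 and at 19.2 and 16.5 in AMPK-KO d0. It rose with a log2 fold change of 2.30 (SE 0.33, adjusted p = 0.0168) at d0 and of 2.25 (SE 0.33, adjusted p = 0.0151) at d8, at 3.09 and 4.18 CPM in WT against 18.8 and 15.8. *Ripk3*, the kinase through which ZBP1 drives necroptosis, had 119 and 277 counts in WT d0 and 31 and 32 in WT d8, but 0 and 2 in AMPK-KO d0 and 0 in both AMPK-KO d8 libraries. With the AMPK-KO libraries set at 3 counts each, *Ripk3* was at least 69.8-fold lower at d0 (adjusted p = 0.0173; at least 38.6-fold without WT d0 replicate 2) and at least 11.97-fold lower at d8 (adjusted p = 0.0286). All 8 libraries of the TET2 table, which are AMPK-/- as well, also had 0 counts of *Ripk3*. *Irf1* (1.02, SE 0.20, adjusted p = 0.0363) and the interferon gamma receptor gene *Ifngr1* (1.05, SE 0.16, adjusted p = 0.0163) were higher and *Tnfaip3*, which encodes the inhibitor A20, was lower (-1.42, SE 0.30, adjusted p = 0.0416) in AMPK-KO at d8. Each of these 5 genes lost the call at d8 in at least 1 fit without 1 library, with a highest adjusted p of 0.103 for *Aim2*, 0.110 for *Ripk3*, 0.112 for *Ifngr1*, 0.194 for *Tnfaip3* and 0.215 for *Irf1*, in the same direction throughout. Without AMPK-KO d8 replicate 1, *Aim2* was at 2.14 (adjusted p = 0.0556), *Irf1* at 1.002 (0.136), *Ifngr1* at 0.92 (0.0718) and *Tnfaip3* at -1.69 (0.0830), and the adjusted p of *Ripk3* was 0.0972. At d0 the calls of *Aim2* and *Ripk3* were each lost in 2 of 8 fits without 1 library (highest adjusted p = 0.106 for both).

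Beside *Aim2*, none of the other 5 tested of 13 further sensors passed at either day. AMPK-KO d8 replicate 1 was the highest library for 1 of the 6 tested, *Ifi204*, at 2.64 times every other. Of those not tested, *Ddx60*, *Oas1a*, *Oas2* and *Oas3* had 117, 134, 241 and 71 counts there and 5, 2, 1 and 0 in replicate 2. The untested *Tlr7*, *Tlr8* and *Tlr9* had 3, 0 and 0 counts in replicate 1. Of 19 adaptors, ligases and kinases, all tested, *Ripk3* alone was called at d0 and at d8. *Ticam1* (-0.53 at d0 and 0.33 at d8), the adaptor of TLR3, *Tbk1* (0.08 and 0.26), the kinase that phosphorylates IRF3, and *Trim25* (0.03 and 0.87), a ubiquitin ligase for RIG-I, were not called on either day. *Ifnar1*, a chain of the type I interferon receptor, was at -0.18 and 0.36, and *Adar*, which edits RNA duplexes, at 0.22 and 1.31, likewise not called, all as log2 fold changes. Without AMPK-KO d8 replicate 1 the values at d8 were 0.50 for *Ticam1*, 0.26 for *Tbk1*, 0.42 for *Trim25*, 0.33 for *Ifnar1* and 0.16 for *Adar*, none of them called.

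Over 8 days of differentiation, *Mb21d1* (cGAS) fell in WT. It was at 13.8 and 11.7 CPM in WT d0 and at 3.801 and 2.815 in WT d8, with a log2 fold change of -1.95 (SE 0.42, adjusted p = 0.0304). It was the only one of 10 members called in this comparison, in which 12.4% of 14329 genes tested were called. Leaving out any of the 4 WT libraries kept the value between -2.20 and -1.77 but ended the call, with adjusted p of 0.0574 to 0.189. In AMPK-KO, *Mb21d1* went from 20.3 and 9.91 CPM at d0 to 5.83 and 3.84 at d8 (-1.64, SE 0.41, adjusted p = 0.0505), and was called with the replicate number as a block (-1.60, adjusted p = 0.0241). Without AMPK-KO d8 replicate 1 it was at -1.96 (adjusted p = 0.0829). In both genotypes each d8 library was below each d0 library. The change differed between genotypes by 0.31 on the log2 scale (SE 0.57, adjusted p = 0.9999). That comparison called none of the 14329 genes tested, so it does not show that the fall was the same in both.

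**Figure D4:**
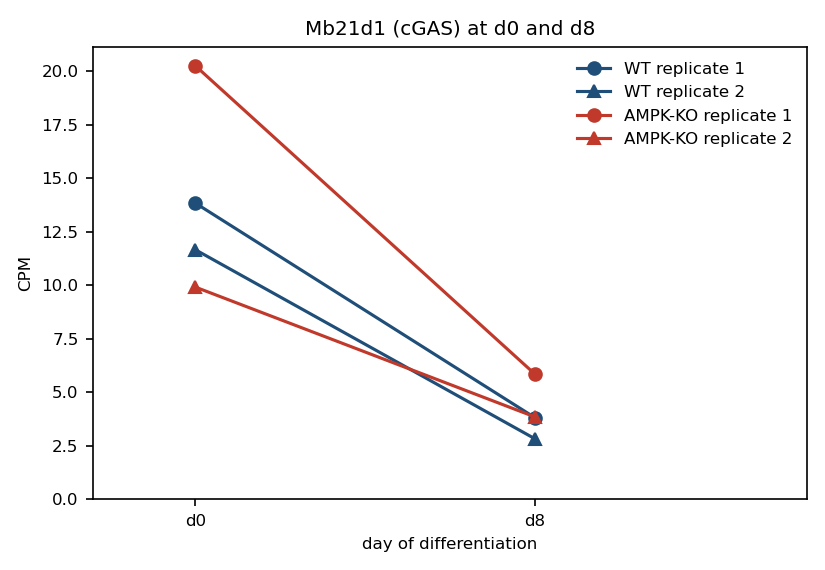
CPM of *Mb21d1* at d0 and d8, a line for each replicate number of WT (blue) and AMPK-KO (red), circles replicate 1 and triangles replicate 2. All 4 libraries at d8 lie at or below 5.83 CPM and all 4 at d0 at or above 9.91 CPM.

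*Zbp1* was higher at d8 by value in both genotypes. It was at 0.289 and 0.108 CPM in WT d0 (6 and 2 counts) and at 1.49 and 2.91 in WT d8 (27 and 62 counts), a log2 fold change of 3.41 (SE 1.30, adjusted p = 0.128). In AMPK-KO it went from 0.105 and 0.561 CPM to 18.4 and 1.70 (4.87, SE 1.27, adjusted p = 0.0560), and without AMPK-KO d8 replicate 1 this was 2.31 (adjusted p = 0.215). Neither change was called, although the d0 and d8 libraries did not overlap in either genotype. DESeq2's Wald test called *Zbp1* higher at d8 in WT (adjusted p = 0.0144) and in AMPK-KO (adjusted p = 6.7e-05).

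In AMPK-KO edgeR called no member between d8 and d0, where it called 9.76% of genes tested. DESeq2's Wald test, which called 17.1% of 14013 genes, called *Mb21d1* lower (adjusted p = 0.00309) and *Zbp1*, *Ifih1* (0.0178), *Ddx58* (0.000989) and *Dhx58* (0.00815) higher. With the replicate number as a block, edgeR called *Mb21d1* alone, where it called 12.9% of 14329 genes. *Ddx58* was at 2.53 (SE 0.76, adjusted p = 0.0816), *Ifih1* at 2.01 (SE 0.67, adjusted p = 0.105), *Dhx58* at 3.76 (SE 1.40, adjusted p = 0.135), *Eif2ak2* at 1.21 (SE 0.58, adjusted p = 0.218) and *Tlr3* at 1.40 (SE 0.69, adjusted p = 0.232) as log2 fold changes. Without AMPK-KO d8 replicate 1 these 5 were 0.72, 1.02, -0.09, -0.25 and -0.07. In WT the same 5 genes ran from -0.37 to 0.29, with none called.

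Other genes of the pathway changed with the day. In WT, *Casp8* (-1.08, SE 0.22, adjusted p = 0.0263) and *Mlkl*, the executor of necroptosis (-1.47, SE 0.28, adjusted p = 0.0231), fell, and *Mlkl* also fell in AMPK-KO (-1.22, SE 0.28, adjusted p = 0.0414), as log2 fold changes. *Rnaseh2a*, a subunit of the enzyme that removes RNA from hybrids with DNA, fell in WT (-0.70, adjusted p = 0.0321) and in AMPK-KO (-0.97, adjusted p = 0.0222). *Samhd1*, which breaks down deoxynucleotides, fell in WT (-0.88, adjusted p = 0.0424), where *Socs3*, an inhibitor of cytokine signalling, rose (1.68, adjusted p = 0.0344). *Relb*, a subunit of NF-kappa B, rose in WT (1.23, adjusted p = 0.0422) and in AMPK-KO (1.26, adjusted p = 0.0457). In AMPK-KO, *Gbp2* (4.66, adjusted p = 0.0344), *Ifit1* (8.17, adjusted p = 0.0352), *Xaf1* (5.25, adjusted p = 0.0391), *Irf7* (5.77, adjusted p = 0.0456) and *Isg15* (6.28, adjusted p = 0.0490) were called higher at d8, and without AMPK-KO d8 replicate 1 the same changes were 2.31, 3.82, 2.24, 2.004 and 2.05, the first 3 still called (adjusted p of 0.0378, 0.0217 and 0.0144) and the last 2 not (0.0908 and 0.132). Leaving out 1 library ended each of these calls in WT in at least 3 of 8 fits, with a highest adjusted p of 0.149 for *Casp8*, 0.156 for *Mlkl*, 0.169 for *Socs3*, 0.176 for *Rnaseh2a*, 0.202 for *Relb* and 0.233 for *Samhd1*. In AMPK-KO the highest was 0.128 for *Rnaseh2a*, 0.201 for *Relb*, 0.214 for *Gbp2*, 0.220 for *Mlkl*, 0.221 for *Ifit1* and 0.223 for *Xaf1*. Without AMPK-KO d8 replicate 1, *Mlkl* was at -1.63 (adjusted p = 0.0202), *Rnaseh2a* at -0.89 (0.0612) and *Relb* at 1.11 (0.138). Muscle markers rose with the day, 4 of 8 called higher in WT and 5 of 8 in AMPK-KO. With the replicate number as a block, *Irf7* (adjusted p = 0.0641) and *Isg15* (adjusted p = 0.0719) were no longer called.

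The change from d0 to d8 was also compared between the genotypes. No gene was called (0% of 14329 by edgeR, 729 with an unadjusted p under 0.05, and 57 called by DESeq2's Wald test), and so no member was. The differences were 2.24 (SE 1.04) for *Ddx58*, 2.17 (SE 0.94) for *Ifih1*, 3.86 (SE 2.02) for *Dhx58* and 1.58 (SE 0.81) for *Eif2ak2* on the log2 scale, and 0.46, 1.21, 0.03 and 0.15 without AMPK-KO d8 replicate 1. *Tmem173* was lower than WT in both AMPK-KO libraries at d0 and higher in both at d8, a difference of 1.14 (SE 0.48, adjusted p = 0.976), and of 1.37 without AMPK-KO d8 replicate 1.

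In the TET2 table, *Ifih1* (MDA5) was the member that differed between the genotypes. It had 64, 54, 94 and 114 counts in the TET2-WT libraries (2.89 and 1.42 CPM in clone 1, 4.30 and 4.06 in clone 2) and 0, 1, 3 and 0 counts in the TET2-S97E libraries (0 and 0.0325 CPM in clone 1, 0.151 and 0 in clone 2). Every TET2-S97E library was thus at or below the floor of 3 counts, in both clones. With those libraries at 3 counts each, *Ifih1* was at least 25.4-fold lower in TET2-S97E than in TET2-WT (3.17 ± 1.32 CPM, SD, n = 4). The fitted log2 fold change was -6.12 (SE 0.80, adjusted p = 0.00610), which depends on how counts near 0 are handled. *Ifih1* was the only member called, 1 of 10, in a comparison that called 6.98% of 13433 genes tested.

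The *Ifih1* call held in every fit that left out 1 library (adjusted p of 0.00790 to 0.0269), in every fit that left out 1 clone (0.00516 to 0.0346), with limma-voom and clone as a random effect (adjusted p = 0.0294) and with DESeq2 (7.21e-11). It was lost when counts were summed per clone, 2 clones against 2 (-6.21, adjusted p = 0.277), a fit in which no gene at all was called and 1575 had an unadjusted p under 0.05. Each genotype rests on 2 clones, and the fit on sums per clone had 2 residual degrees of freedom.

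*Ifih1* lies at chr2:62595798-62646255 on the minus strand (GRCm38, GENCODE M21), and its neighbours were looked at after its values had been seen. *Fap*, the nearest listed gene toward lower coordinates, had 1, 5, 17 and 16 counts in TET2-WT and 17, 12, 16 and 5 in TET2-S97E. *Gca*, the nearest toward higher coordinates, had 0 to 2 counts in all 8 libraries, and *Kcnh7* had 0 or 1. Of these neighbours, *Fap* alone had enough counts to be compared, and the genotypes overlapped.

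**Figure D5:**
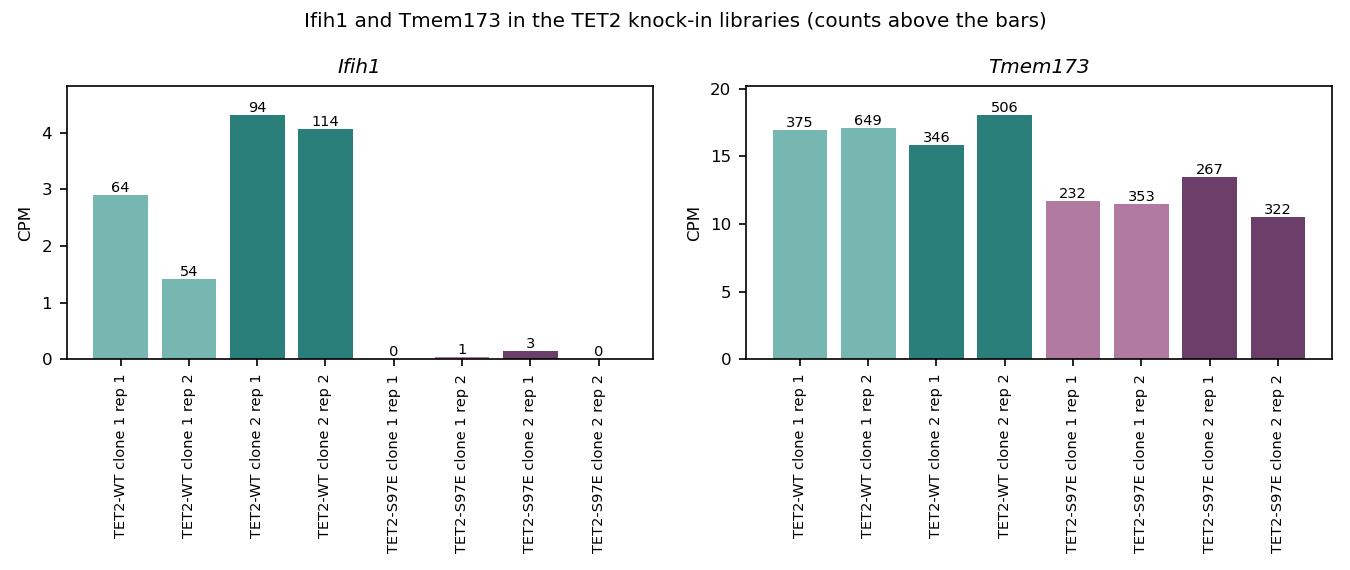
CPM of *Ifih1* (left) and *Tmem173* (right) in the 8 TET2 libraries, bars starting at 0 and coloured by clone, with the counts above each bar. *Ifih1* has 54 to 114 counts in TET2-WT and 0 to 3 in TET2-S97E, and every *Tmem173* bar of TET2-S97E is below every one of TET2-WT.

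*Tmem173* (STING) was lower in all 4 TET2-S97E libraries than in all 4 TET2-WT libraries. It was at 16.9, 17.1, 15.8 and 18.0 CPM in TET2-WT and at 11.7, 11.5, 13.5 and 10.5 in TET2-S97E (17.0 ± 0.895 against 11.8 ± 1.23 CPM, SD, n = 4 libraries of 2 clones each). The log2 fold change of -0.53 (SE 0.14, adjusted p = 0.0550) did not pass the threshold. Of 18 alternatives, 17 did not call it either, among them clone as a random effect in limma-voom and counts summed per clone. DESeq2's Wald test alone called it (adjusted p = 0.0106). In fits without 1 library the adjusted p was 0.0536 to 0.130. *Mb21d1*, the sensor upstream of STING, was at 4.40 to 4.84 CPM in TET2-WT and at 5.01 to 7.22 in TET2-S97E (0.32, SE 0.20, adjusted p = 0.377), also without overlap.

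The other members overlapped between the TET2 genotypes. The median log2 fold change of the 10 members was 0.05, against 0.01 over all genes tested, and 5 of 10 were above 0. The 2 other helicases did not follow *Ifih1*: *Ddx58* was at 17.1 ± 5.72 CPM in TET2-WT and 16.8 ± 6.84 in TET2-S97E (SD, n = 4 each), and *Dhx58* at 0.828 ± 0.298 and 1.05 ± 0.455 CPM. *Mavs*, the adaptor that MDA5 shares with RIG-I, was at 33.9 ± 4.02 and 33.7 ± 2.92 CPM. *Eif2ak2* was at 43.4 ± 6.99 and 46.8 ± 10.7 CPM, *Irf3* at 48.5 ± 7.12 and 45.4 ± 4.87, and *Zbp1* at 0.616 ± 0.256 and 0.894 ± 1.09, each as TET2-WT and then TET2-S97E. None of these 6 was called by edgeR or by DESeq2.

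Of the pathway lists, *Nfkb1* alone was called between TET2-S97E and TET2-WT. It was lower in TET2-S97E (log2 fold change -0.76, SE 0.15, adjusted p = 0.0217), at 106 to 125 CPM in TET2-WT and 56.5 to 83.3 in TET2-S97E, but was not called with clone as a random effect in limma-voom (adjusted p = 0.0629) or with counts summed per clone (adjusted p = 0.356), and the call was lost in 9 of 18 alternatives, 4 of them fits without 1 library (highest adjusted p = 0.0690). None of 15 tested effectors was called, with a median of -0.21, and their summed level was 186 to 232 CPM in TET2-WT and 151 to 258 in TET2-S97E. Muscle markers also differed between the genotypes, with 5 of 8 called higher in TET2-S97E. Among them was *Myog*, a regulator of muscle differentiation (4.61, SE 1.04, adjusted p = 0.0307, lost in 5 of 8 fits without 1 library, with a highest adjusted p of 0.0971). The list summed to 1030, 1318, 1070 and 1407 CPM in TET2-WT and 7690, 3958, 2482 and 1226 in TET2-S97E, the last within the TET2-WT range. The markers varied between clones as well: in TET2-WT, clone 2 was above clone 1 by a median log2 fold change of 1.94, with 1 of 8 called, where 0.858% of all genes were. Of the endothelial list, *Tek* was lower in TET2-S97E (-1.93, SE 0.44, adjusted p = 0.0326), at 1.39 to 6.10 CPM in TET2-WT and 0.879 to 1.31 in TET2-S97E, and its call was lost in 7 of 8 fits without 1 library (highest adjusted p = 0.0954). The part of the muscle markers and of *Tek* in the difference of *Ifih1* was not tested.

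Sensor levels were also compared between the clones of a genotype. In TET2-S97E, *Tlr3* was at 1.72 and 1.43 CPM in clone 1 and at 4.70 and 3.89 in clone 2 (log2 fold change 1.45, SE 0.37, adjusted p = 0.0498), the only member called, where 6.17% of 14459 genes tested were. With DESeq2's size factors the call was lost (adjusted p = 0.0548), as it was in each of the 8 fits without 1 library (0.0505 to 0.227). Against TET2-WT, *Tlr3* in TET2-S97E moved with clone 2: it was at 0.75 (SE 0.41, adjusted p = 0.314) with all libraries and at -0.16 without clone 2. *Ddx58* was at 9.23 and 13.1 CPM in clone 1 and at 20.6 and 24.2 in clone 2 (1.01, SE 0.31, adjusted p = 0.0932), and *Zbp1* at 0.303 and 0.228 against 2.52 and 0.523 (2.5, SE 0.85, adjusted p = 0.131). Neither of these was called, although both clone 2 libraries were above both of clone 1. *Ddx58* was called higher by DESeq2's Wald test (adjusted p = 0.0232), with the replicate number as a block (0.0307), without the filter on low counts (0.00250) and in 2 of 8 fits without 1 library (lowest 0.0276). *Zbp1* was at 0.94 (adjusted p = 0.714) without TET2-S97E clone 2 replicate 1, and at 3.26 and called (adjusted p = 0.0387) without replicate 2 of that clone.

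Several interferon-stimulated genes were higher in the same clone. In TET2-S97E clone 2, *Irgm1* (1.26, SE 0.17, adjusted p = 0.00378), *Ifit3* (3.07, SE 0.45, adjusted p = 0.00488) and *Ifit3b* (at least 7.71-fold, clone 1 being at the floor of 3 counts per library, adjusted p = 0.0119) rose over clone 1, and 5 of 16 tested effectors were called, all higher. *Irf1* (0.95, SE 0.17, adjusted p = 0.0128) and *Socs3* (0.91, SE 0.18, adjusted p = 0.0178) were higher as well, and *Aim2* was lower (-0.87, SE 0.17, adjusted p = 0.0196). In fits without 1 library the calls of *Irgm1* and *Ifit3* held in all 8, and the highest adjusted p was 0.0763 for *Ifit3b*, 0.0863 for *Irf1*, 0.108 for *Aim2* and 0.113 for *Socs3*. *Ifit3* and *Ifit3b* are close relatives whose reads may be split between them. Muscle markers were lower in clone 2, with 4 of 8 called, *Myod1* among them (-2.36, SE 0.23, adjusted p = 0.00117), and their part was not tested. *Cdh5* of the endothelial list was also lower there, at 14 and 43 counts in clone 1 and 0 and 1 in clone 2, at least 8.44-fold with clone 2 at the floor (adjusted p = 0.0142), a call lost in 5 of 8 fits without 1 library (highest adjusted p = 0.0732).

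Between the clones of TET2-WT, no member was called, where 0.858% of 14459 genes tested were. *Ifih1* was at 2.89 and 1.42 CPM in clone 1 and at 4.30 and 4.06 in clone 2 (log2 fold change 0.96, SE 0.64, adjusted p = 0.412). None of the 10 members had an unadjusted p under 0.05 in this comparison, against 2957 of all genes tested. DESeq2's Wald test called no member either, where it called 5.85% of 14743 genes. The log2 fold changes of the members ran from -0.10 to 0.96.

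The genes with the pattern most like that of 3 members were sought among 13078 genes that passed the filter in both tables, by the root mean square difference of log2 CPM (prior count 2), each centred on its own mean in each table, over 16 libraries. These points share libraries, and no test was made. Closest to *Ddx58* were *Irf9* (0.24), *Stat2* (0.37) and *Dtx3l* (0.38), against a median difference of 0.87 over all genes. Each of the 3 was also at its highest in AMPK-KO d8 replicate 1. Closest to *Tlr3* were *Plod2* (0.38), *Erap1* (0.38) and *Pde4d* (0.38), against a median of 0.76. Closest to *Ifih1* were *Tram1l1* (1.02), *Wnt5b* (1.02) and *Sema3c* (1.04), against a median of 1.91. This distance grows with the spread of the gene itself, so its size is not compared between the members. *Tram1l1* had 37 to 129 counts in TET2-WT and 0, 0, 4 and 5 in TET2-S97E, while it was at 65 and 42 counts in AMPK-KO d8, where *Ifih1* had 370 and 104.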

How the data were processed

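RNA-seq of ribosomal RNA-depleted total RNA was measured in 16 libraries. Per the labels and the study's methods, the authors trimmed reads with Trim Galore 0.4.5, aligned them to mm10 with STAR 2.5.3a and counted them with featureCounts 1.5.3 on GENCODE M12. The deposited values are raw counts per gene, in 1 table per experiment; use of strand in counting is not given in the sources used here, so overlapping antisense reads cannot be told apart. Gene names came from GENCODE M21 (49326 of 49585 IDs matched without version).

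Counts were tested in edgeR 4.0.16 (R 4.3.3) with TMM library sizes, filterByExpr and the quasi-likelihood test, all groups of a table in 1 fit (the TET2 genotypes over clones in a fit of their own), with Benjamini-Hochberg adjustment over all genes tested at 0.05. SE is the absolute log2 fold change over the square root of F. Scripts were tested on simulated counts. A gene with at most 3 counts in every library of a group was taken to be at the floor; floors cover counting error only. TPM used merged exon lengths. The alternatives were DESeq2 1.42.0, DESeq2 size factors, no filter, the replicate number as a block, each library or clone left out, 1 day only, counts summed per clone, and limma 3.58.1 voom with clone as a random effect. Same-numbered libraries deviated together in every pair of groups in the first table (r of 0.119 to 0.324). The main fit nevertheless held no pairing, and the replicate number was used as a block only in an alternative fit.

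The members and lists were chosen with earlier results of these data known. Named genes were the members, the edited genes, pathway genes fixed by role, at most 3 called genes of each other list per comparison with the lowest adjusted p, the most abundant marker of each list and the nearest 3 genes to *Ifih1*, *Ddx58* and *Tlr3*. The neighbours of *Ifih1*, *Ifna4*, and *Xaf1* at d8 without AMPK-KO d8 replicate 1 were chosen after their values were seen. MeDIP-seq was not analysed here. Some genes of the lists are not reported here.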

Additional observations from a re-analysis of the deposited data

Results flagged for a closer look

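Values of the sensor genes in 4 libraries of a genotype were checked for a library far from the others (Dixon's test at the 95% level), in 20 groups, of which chance alone would mark about 1 in 20. *Ddx58* in TET2-WT clone 2 replicate 2, at 25.6 CPM, lay above the other 3 libraries at 13.2 to 15.2 CPM. *Zbp1* in TET2-S97E clone 2 replicate 1, at 2.52 CPM (50 counts), lay above the other 3 at 0.228 to 0.523 CPM. *Tmem173* was lower in both AMPK-KO libraries than in both WT libraries at d0 and higher in both at d8. The change over time differed between the genotypes by 1.14 on the log2 scale, which did not pass the test (adjusted p = 0.976 by edgeR). Only the members were searched for such a switch, and its share over all genes was not counted. Groups this small can separate by chance alone.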

How the results depend on the processing

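Over 8 comparisons the count of members called changed under these alternatives. DESeq2's Wald test called 2 members for AMPK-KO against WT at d8, 2 for d8 against d0 in WT, 5 for d8 against d0 in AMPK-KO, 2 for TET2-S97E against TET2-WT and 2 between the TET2-S97E clones. In these 5 comparisons that test called 9.7%, 17.3%, 17.1%, 11.2% and 9.24% of all genes. Without the filter on low counts the members called were 5, 2, 7, 1 and 3, where 9.98%, 13.1%, 12.1%, 4.27% and 6.56% of all genes were called, and 4 for the difference between the day changes (1.79% of all genes). Counts summed per clone called 0 between the TET2 genotypes, where no gene at all was called. DESeq2 size factors called 0 between the TET2-S97E clones, where 6.13% of all genes were called. With the replicate block, 1 member was called for d8 against d0 in AMPK-KO and 2 between the TET2-S97E clones, where 12.9% and 10.7% of all genes were called. The block changed no other count of members. In the TET2 table same-numbered libraries correlated at -0.036 to 0.512, above 0.1 in 4 of 6 pairs of groups, so the numbers were not taken to pair them; replicate 2 was the deeper library in every clone. Leaving out 1 library gave 0 to 3 members called for AMPK-KO against WT at d8, 0 to 2 for d8 against d0 in WT, 0 to 4 for d8 against d0 in AMPK-KO and 0 to 1 between the TET2-S97E clones. The cause of these shifts was not tested.

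Leaving out 1 library reversed 6 log2 fold changes. For AMPK-KO against WT at d8, *Ddx58* ran from -0.0393 to 2.505, *Tlr3* from -0.66 to 1.48 and *Zbp1* from -0.35 to 3.03. For d8 against d0 in AMPK-KO, *Dhx58* ran from -0.0947 to 4.785, *Eif2ak2* from -0.25 to 1.90 and *Tlr3* from -0.0717 to 2.09. Each low end was the fit without AMPK-KO d8 replicate 1. *Tlr3* in TET2-S97E against TET2-WT was at -0.16 without TET2-S97E clone 2. Of 1092 values of 84 gene results under alternatives, 824 kept direction and side of the threshold, 196 lost the call, 65 gained it and 7 reversed.

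Over all genes, the 505 calls at d0 and 766 at d8 between AMPK-KO and WT became 1299 and 1538 with DESeq2. Without the filter they became 2026 and 2503, and with the replicate block 740 and 1144. With the libraries of that day alone, 335 were called at d0. The 938 calls between the TET2 genotypes became 1912 with DESeq2, 166 with limma-voom, 0 with counts summed per clone, and 183 and 625 without TET2-WT clone 1 and clone 2. The 124 calls between the TET2-WT clones became 863 with DESeq2, 1627 without the filter and 677 with the block, and none was called without TET2-WT clone 1 replicate 2. Fits without 1 library called 17 to 613 genes for AMPK-KO against WT at d0, 107 to 902 at d8, 0 to 2260 and 0 to 1737 for the day changes in WT and AMPK-KO, 304 to 1092 between the TET2 genotypes, 0 to 313 between the TET2-WT clones and 472 to 1014 between the TET2-S97E clones. For the day changes in WT and AMPK-KO, the unfiltered fit called 3293 and 3039 against 1771 and 1398, and DESeq2 called 2393 against 1398 in AMPK-KO; between the TET2-S97E clones they called 1680 and 1362 against 892, and the block 1540. The difference between the day changes had 57 calls with DESeq2 and 449 without the filter, against 0. Ordered by CPM in place of TPM, *Eif2ak2* came first in both tables and *Ddx58* passed *Tmem173*, and in the TET2 table *Ifih1* came above *Zbp1*, which was last. Groups of 2 libraries, and the low counts of *Dhx58* and *Zbp1*, limit the precision.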
